A study of Homo sapiens with 30 samples.

Results

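Long noncoding RNAs known from prostate cancer and from other tumors were followed through 30 RNA-seq libraries of 10 conditions, with 3 libraries for each condition. The genes were PCA3, PCGEM1, PCAT1, MALAT1, NEAT1, GAS5, SNHG1, H19 and MEG3, chosen by symbol, and all 9 were found among the 23616 gene symbols with FPKM values and the 23710 symbols with read counts. Levels are given in FPKM (fragments normalised for the length of the transcript and for library size), which the authors estimated per RefSeq transcript and which were summed here by gene symbol. FPKM carry no depth of their own.

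V16D is a castration-resistant line derived from the prostate cancer line LNCaP. MR49F is an enzalutamide-resistant line of the same origin, raised from LNCaP xenografts in castrated mice under enzalutamide. In the first experiment V16D and MR49F cells in 10% fetal bovine serum (full serum) received vehicle (DMSO) or 10 μM enzalutamide, an antiandrogen drug, for 24 h. In the second experiment MR49F cells spent 72 h in 10% charcoal-stripped serum, which is poor in steroids, and then received for 24 h vehicle (DMSO and ethanol), 10 μM enzalutamide, 1 nM dihydrotestosterone (DHT, a natural androgen), 500 nM JQ-1 (an inhibitor of BET bromodomain proteins), or JQ-1 combined with enzalutamide or with DHT. The study's methods name enzalutamide in routine culture for MR49F cells only, and both lines spent 96 h without it before the treatment or the change of serum. The sera were separate experiments, so levels were compared within a serum only. The study's methods describe the 3 libraries of a condition as biological replicates, each made from pooled wells. The labels speak of wells plated in triplicate and name no separate platings, so the p-values measure the spread between these libraries.

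The labels were checked with KLK3 and TMPRSS2, well-known androgen-regulated genes. KLK3 fell from 509 ± 8.74 to 132.5 ± 2.35 FPKM (SD, n = 3) with enzalutamide in V16D cells, and in stripped serum it stood at 283 ± 6.14 FPKM with vehicle, 799.7 ± 8.90 with enzalutamide, 1258 ± 60.9 with DHT and 7.01 ± 0.579 with JQ-1. TMPRSS2 fell from 78.6 ± 1.37 to 14.4 ± 0.758 FPKM with enzalutamide in V16D cells and rose from 23.3 ± 1.02 to 170.1 ± 5.22 FPKM with DHT in stripped serum. Of the 10 luminal epithelial markers, 10 reached 1 FPKM in every full-serum library and 9 in every stripped-serum library, while the 3 basal markers stayed under 1 FPKM in every library. In full serum 13170504 to 21154962 reads per library were counted on genes, and in stripped serum 982130 to 1813262. They made up 73.0% to 77.8% and 5.13% to 7.66% of all reads assigned, ambiguous or outside features. A count result in stripped serum therefore rests on a small part of the reads, for a reason that was not tested. The vehicle library of MR49F in full serum with replicate number 1 stood apart: its counts differed from those of its replicates by a chi-square per degree of freedom of 9.27 and 10.9, against 1.12 to 2.66 for the other replicate pairs. Called results for single genes of the set that use this library, and calls that change without it, are given with and without it.

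Long noncoding RNAs act without being translated. NEAT1 is the architectural RNA of paraspeckles, nuclear bodies that hold RNA-binding proteins, and MALAT1 is an abundant RNA of nuclear speckles, where splicing factors collect. The NEAT1 values come from 1 RefSeq transcript in poly(A) RNA. They do not tell forms of this RNA apart and are no measure of paraspeckles. GAS5 and SNHG1 are host genes of small nucleolar RNAs (snoRNAs), which guide the modification of ribosomal RNA and are cut from the introns, and the spliced GAS5 RNA is known for its turnover during translation. PCA3 is measured in urine as a marker of prostate cancer, PCGEM1 and PCAT1 were described as prostate cancer transcripts, and H19 and MEG3 are imprinted genes expressed from the maternal allele.

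The genes were placed on GRCh37, the build the reads were aligned to, by GENCODE release 44 lifted to that build, which is not the annotation used for the FPKM values. PCA3 lies at chr9:79306896-79478223 on the plus strand inside PRUNE2 (chr9:79226292-79521030, minus strand), and annotated exons of the pair overlap. NEAT1 (chr11:65190245-65213011) and MALAT1 (chr11:65265111-65275544) are neighbours on the plus strand, and SNHG1 (chr11:62619450-62623425) and H19 (chr11:2016396-2025782) lie on the minus strand of the same chromosome. GAS5 (chr1:173827697-173838020, minus strand) shares exonic bases with GAS5-AS1 on the opposite strand, PCGEM1 lies at chr2:193614571-193641625 and MEG3 at chr14:101245747-101327368, both on the plus strand.

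RefSeq promoter sequences of build GRCh38.p14, each 250 bases before and 50 after an annotated start, were at hand for 7 of the 9 genes. They were searched for AGAACA and its complement TGTTCT, the hexamer of steroid hormone response elements, which occurs there in pairs; 14.8% of all 35116 promoters held it. PCGEM1 had a match starting 191 bases before its start, H19 117 bases and the second MALAT1 promoter 41 bases before theirs, and the windows of PCA3, SNHG1, GAS5 and MEG3 had none. The inverted pair of the hexamer with 3 bases between, the full element, was in 1 of all promoters and in none of these. The promoters of PCA3 and SNHG1, whose RNAs were higher with DHT, of PCGEM1, which held the hexamer, and of MALAT1 (first entry), higher with JQ-1, are shown 5′ to 3′, with the transcribed bases at the end in capitals and, upstream, the hexamer in capitals. They cover chr9:76764186-76764485 (plus strand, PCA3), chr2:192749595-192749894 (plus strand, PCGEM1), chr11:62855836-62856135 (minus strand, SNHG1) and chr11:65497488-65497787 (plus strand, MALAT1).
PCA3: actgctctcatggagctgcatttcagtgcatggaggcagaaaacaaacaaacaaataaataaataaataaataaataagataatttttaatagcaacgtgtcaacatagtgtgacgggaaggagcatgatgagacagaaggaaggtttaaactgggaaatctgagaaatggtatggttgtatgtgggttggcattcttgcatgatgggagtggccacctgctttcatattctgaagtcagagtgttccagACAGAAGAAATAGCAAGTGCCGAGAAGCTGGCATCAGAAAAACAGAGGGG
PCGEM1: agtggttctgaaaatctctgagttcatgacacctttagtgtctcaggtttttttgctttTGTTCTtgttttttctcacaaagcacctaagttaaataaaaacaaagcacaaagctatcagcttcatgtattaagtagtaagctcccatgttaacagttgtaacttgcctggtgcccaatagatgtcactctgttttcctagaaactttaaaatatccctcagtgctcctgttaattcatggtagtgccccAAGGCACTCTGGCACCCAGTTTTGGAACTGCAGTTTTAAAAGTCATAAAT
SNHG1: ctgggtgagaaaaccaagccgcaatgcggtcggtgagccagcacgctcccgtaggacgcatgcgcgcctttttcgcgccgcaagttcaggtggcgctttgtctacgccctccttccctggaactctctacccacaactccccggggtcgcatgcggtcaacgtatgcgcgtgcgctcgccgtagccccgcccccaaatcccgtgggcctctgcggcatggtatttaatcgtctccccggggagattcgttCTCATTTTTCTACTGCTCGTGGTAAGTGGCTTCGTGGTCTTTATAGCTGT
MALAT1: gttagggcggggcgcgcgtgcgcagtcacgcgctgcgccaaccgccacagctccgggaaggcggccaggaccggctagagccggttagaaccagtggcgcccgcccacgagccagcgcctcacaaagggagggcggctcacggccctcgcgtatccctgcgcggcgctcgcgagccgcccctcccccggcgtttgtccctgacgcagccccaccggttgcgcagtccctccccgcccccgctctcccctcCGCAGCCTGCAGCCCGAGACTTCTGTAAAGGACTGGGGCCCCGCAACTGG

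The genes differed widely in level. MALAT1, NEAT1, GAS5 and SNHG1 averaged over 1 FPKM in all 10 conditions, PCAT1 in 6 and PCA3 in 1, whereas PCGEM1, H19 and MEG3 did not reach 1 FPKM on average in any condition. MALAT1 had the highest condition mean of the 9 genes, 653 ± 94.7 FPKM with JQ-1, followed by NEAT1 with 362 ± 8.19 FPKM under enzalutamide and JQ-1. Within stripped serum the condition means of PCAT1 spanned 27.7-fold from lowest to highest, against 25.3-fold for PCA3, 8.45-fold for H19, 6.06-fold for NEAT1, 2.31-fold for MALAT1, 2.01-fold for SNHG1 and 1.63-fold for GAS5. Within full serum these 7 genes spanned 1.13-fold (PCAT1) to 2.87-fold (H19).

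**Figure D1:**
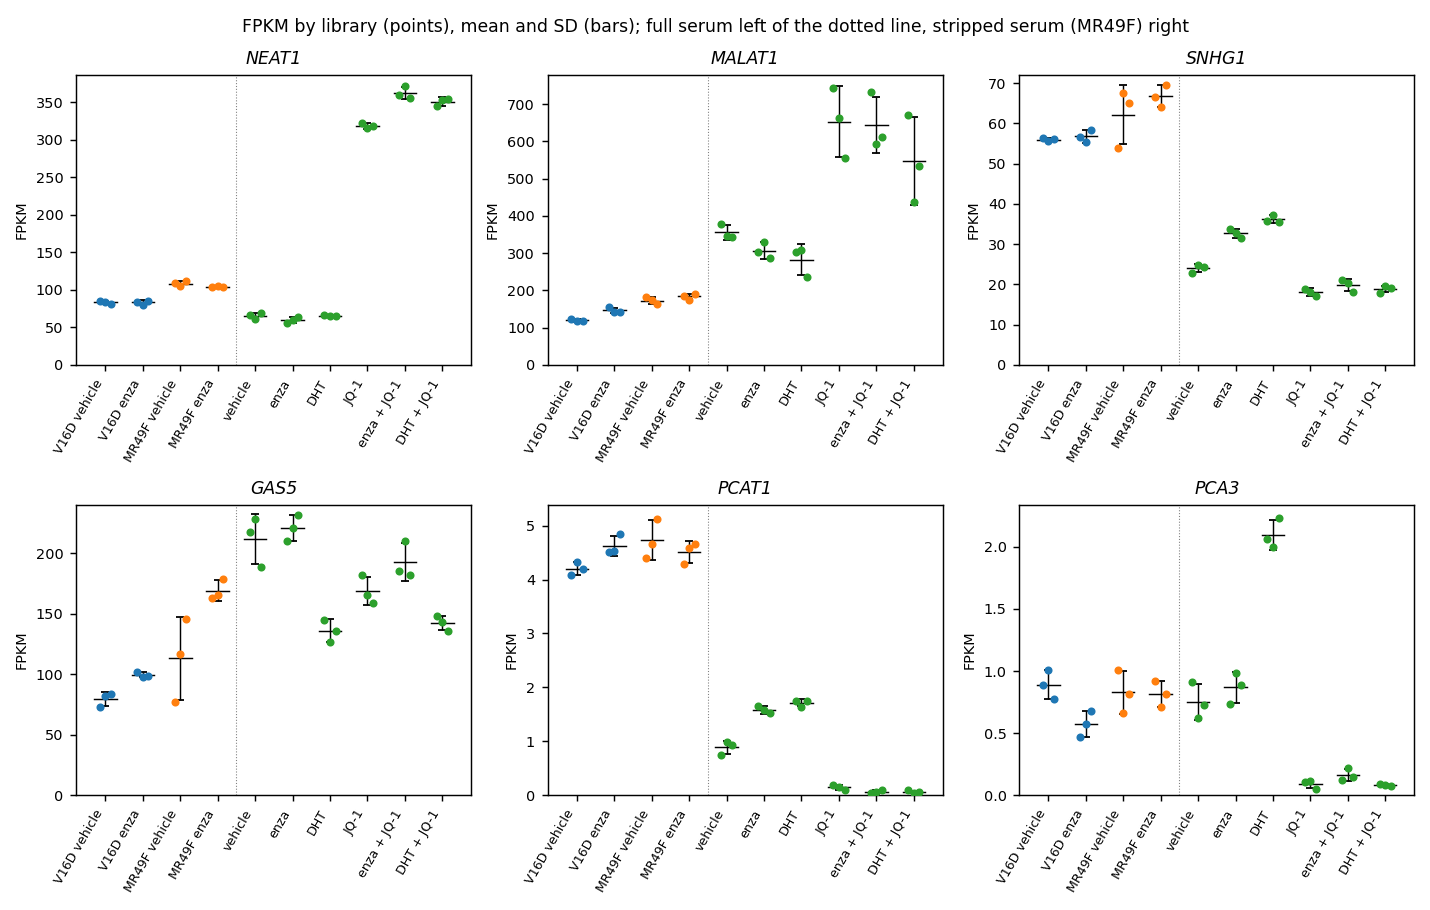
FPKM (y axis, linear from 0) of the 6 genes that reached 1 FPKM on average in at least 1 condition, for each of the 10 conditions (x axis). Points are libraries and bars the mean with its SD over 3 libraries; blue is V16D in full serum, orange MR49F in full serum and green MR49F in stripped serum. NEAT1 lies between 315 and 371 FPKM in the JQ-1 libraries and at most at 112 FPKM in all others, and PCA3 reaches 1.999 to 2.23 FPKM with DHT.

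Differences were tested with limma on log2(FPKM + 1) across all genes that reached 1 FPKM in 3 or more of the libraries compared, and a gene was called at a Benjamini-Hochberg adjusted p of at most 0.05. A fold change on this scale understates the change of low genes. In bulk RNA, fewer cells of a type and less RNA per cell cannot be told apart. PCGEM1, H19 and MEG3 never passed the filter. PCA3 passed it only where the DHT libraries took part, and PCAT1 in stripped serum only through the enzalutamide or DHT libraries, so each had to be higher there to be tested. The adjusted p without a filter is therefore given beside their values, and the next paragraphs count only genes at 1 FPKM or more in every library compared.

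Enzalutamide left most of these RNAs little changed in full serum. In V16D cells GAS5 and MALAT1 rose, 2 of the 5 genes tested, where 30.4% of all genes were called. In MR49F cells 0 of 5 were called by limma, with 4.60% of all genes called; at an unadjusted p under 0.05 GAS5 alone was counted (1 gene), and edgeR and DESeq2 on the read counts called it. Between the lines under vehicle MALAT1 and NEAT1 were higher in MR49F, 2 of 5, with 62.6% of all genes called; without the library that stood apart all 5 were called, beside 68.6% of all genes. The response to enzalutamide was called as different between the lines for 0 of the 5 genes by limma, where 6.04% of all genes were. At an unadjusted p under 0.05, 2 genes were counted (PCAT1, -0.17, and MALAT1, -0.21), and edgeR without a filter called MALAT1 (-0.23, adjusted p = 0.00402). The 4.60% and 6.04% hold for the adjusted threshold only. The share of all genes at the unadjusted threshold is not given, so the unadjusted counts have no measure beside them.

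In stripped serum, where MALAT1, NEAT1, GAS5 and SNHG1 were at 1 FPKM or more in every library, SNHG1 rose and MALAT1 fell with enzalutamide, 2 of these 4 genes (38.7% of all genes called). With DHT SNHG1 rose and GAS5 and MALAT1 fell, 3 of 4 (72.1% of all genes). With JQ-1 NEAT1 and MALAT1 rose and GAS5 and SNHG1 fell, 4 of 4 (75.1% of all genes). JQ-1 added to enzalutamide moved the same 4 genes in these directions, 4 of 4 (75.7% of all genes), and JQ-1 added to DHT moved 3 of 4, without GAS5 (78.8% of all genes). DHT set against enzalutamide gave higher SNHG1 and lower GAS5, 2 of 5 genes including PCAT1 (57.4% of all genes). With most genes called in the DHT and JQ-1 comparisons, these counts lie near what all genes showed, and the sizes carry more than the counts. Comparisons that share the same vehicle, DHT or enzalutamide libraries are not independent of each other.

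**Figure D2:**
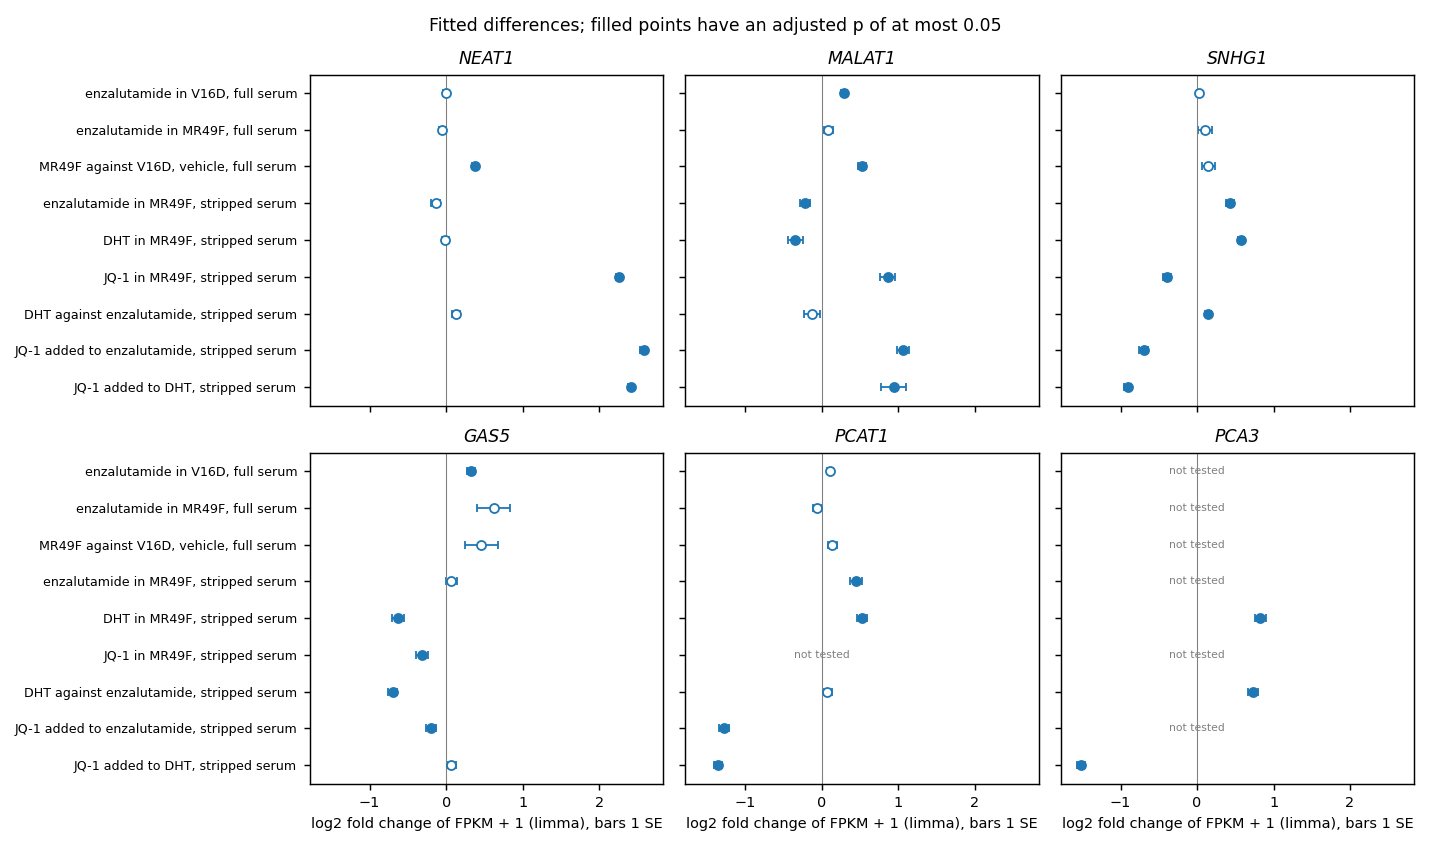
Log2 fold change of FPKM + 1 (x axis) with 1 standard error, from limma, for 6 genes and the 9 comparisons between groups (y axis). Filled points have an adjusted p of at most 0.05, open points do not, and genes under the filter are marked as not tested. The 3 JQ-1 comparisons of NEAT1 lie at 2.26, 2.58 and 2.41, and PCAT1 lies at -1.28 and -1.35 where JQ-1 joined enzalutamide or DHT.

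NEAT1 rose with JQ-1 in all 3 settings, and on the log2(FPKM + 1) scale it moved more than the other genes of the set; by the ratio of means PCAT1, a low gene, moved further, 6.16-fold, 24.7-fold and 27.7-fold down beside vehicle, enzalutamide and DHT. Its vehicle libraries in stripped serum read 66.7, 61.7 and 68.7 FPKM and its JQ-1 libraries 322, 315 and 318 FPKM. With enzalutamide it read 56.1, 59.2 and 63.9 FPKM, and with enzalutamide and JQ-1 359, 371 and 355.5 FPKM. With DHT it read 65.8, 65.1 and 64.5 FPKM, and with DHT and JQ-1 345, 353 and 355 FPKM. In each of these pairs all libraries with JQ-1 were above all libraries without it, by more than the spread within either group. The ratio of the means was 4.85 over vehicle, 6.06 over enzalutamide and 5.39 over DHT, and the log2 fold changes were 2.26 (standard error, SE, 0.04, limma adjusted p = 4.59e-09), 2.58 (0.05, 2.29e-09) and 2.41 (0.03, 1.93e-09). Among all genes tested, 12, 6 and 12 had a larger log2 fold change in these comparisons. DHT alone left NEAT1 at 65.1 ± 0.673 against 65.7 ± 3.63 FPKM with vehicle, ranges that overlapped, with a log2 difference of -0.01 (adjusted p = 0.840, limma); after rescaling by median ratios, which moved the median of all genes from -0.08 to 0.04, it was 0.12 (adjusted p = 0.0347, limma). The rise with JQ-1 was larger in the presence of enzalutamide by 0.32 on the log2 scale (standard error 0.07, adjusted p = 0.00732) and of DHT by 0.15 (0.05, adjusted p = 0.0324), both from limma; beside them 19.2% and 48.0% of all genes were called. The call with DHT was kept in 4 of 12 fits that left out a library, and edgeR on the counts called neither (adjusted p = 0.254 and 0.16).

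In full serum NEAT1 stood at 83.2 ± 2.03 FPKM in V16D and 108 ± 3.48 in MR49F cells with vehicle, with no overlap, a log2 difference of 0.38 (standard error 0.04, adjusted p = 0.000417, limma; adjusted p = 0.000451 without the library that stood apart). Enzalutamide changed it by -0.00 in V16D (standard error 0.03, adjusted p = 0.982) and by -0.06 in MR49F cells (0.04, adjusted p = 0.396), and the libraries with and without it overlapped in both lines.

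MALAT1 followed NEAT1 upward with JQ-1, with more spread. Its vehicle libraries in stripped serum read 379, 347 and 343 FPKM and its JQ-1 libraries 744, 662 and 555 FPKM, so that the groups did not overlap although the JQ-1 libraries lay far apart. The log2 fold change was 0.86 (SE 0.10, adjusted p = 5.73e-05, limma), and 379 of all genes tested rose more. Added to enzalutamide, JQ-1 raised MALAT1 from 307 ± 21.7 to 645 ± 75.7 FPKM, a log2 fold change of 1.07 (0.08, adjusted p = 3.80e-06), and added to DHT from 283 ± 41.3 to 548 ± 118 FPKM, 0.94 (0.16, adjusted p = 0.00068). Neither rise differed from that with JQ-1 alone past the threshold (0.20, standard error 0.15, adjusted p = 0.373 with enzalutamide; 0.08, standard error 0.22, adjusted p = 0.796 with DHT; limma).

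Enzalutamide and DHT lowered MALAT1 in stripped serum by less. Enzalutamide gave 302, 331 and 288 FPKM, all under the lowest vehicle library, a log2 fold change of -0.21 (SE 0.06, adjusted p = 0.0254, limma). This call was lost in the fit of all stripped-serum groups (adjusted p = 0.234), without the filter (0.0674), in edgeR on the counts (0.222), and without vehicle replicate 1 (0.0795), enzalutamide replicate 1 (0.0652) or enzalutamide replicate 3 (0.0799). DHT gave 303, 310 and 235 FPKM, -0.34 (0.10, adjusted p = 0.0138), which after rescaling by median ratios was -0.21 (adjusted p = 0.103). In full serum the direction was the other way: MALAT1 rose with enzalutamide in V16D cells from 123, 117 and 119 to 155, 143 and 142 FPKM, a log2 fold change of 0.29 (SE 0.04, adjusted p = 0.00202), with no overlap. In MR49F cells the groups overlapped (173 ± 9.84 against 184 ± 7.77 FPKM), at 0.09 (0.06, adjusted p = 0.388). The effect of enzalutamide in MR49F cells differed between the sera by -0.30 (0.09, adjusted p = 0.025, limma), a comparison in which 34.1% of all genes were called; 7 of 12 fits that left out a library kept the call, without the library that stood apart it was -0.34 (adjusted p = 0.0145), and after rescaling it was -0.23 (adjusted p = 0.109). Under vehicle in full serum MR49F exceeded V16D cells by 0.53 (0.05, adjusted p = 0.000266), and by 0.49 (adjusted p = 0.000214) without that library.

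With the treatments the proteins of these nuclear bodies did not move as a group. Of 11 genes for paraspeckle and speckle proteins, 5 rose and 3 fell with JQ-1, with a median log2 fold change of 0.06 against -0.06 for all genes; these 8 of 11 compare with 75.1% of all genes called. PSPC1, a paraspeckle protein, rose from 30.6 ± 2.08 to 50.3 ± 2.76 FPKM (0.70, standard error 0.06, adjusted p = 8.74e-06, limma), and SRRM2, a scaffold of nuclear speckles, rose by 0.65 (0.05, adjusted p = 3.51e-06). The splicing factor SRSF1 fell by 0.45 (adjusted p = 3.37e-06) and the RNA-binding protein HNRNPK fell by 0.43 (adjusted p = 2.41e-05). When JQ-1 joined enzalutamide 5 rose and 5 fell, and when it joined DHT 5 rose and 4 fell (75.7% and 78.8% of all genes called), with PSPC1 at 0.75 and 0.88. With DHT alone 4 rose, the splicing factor SRSF2 most (0.38), and 2 fell (72.1% of all genes called), and with enzalutamide 1 rose and 1 fell (38.7%). Between the lines NONO, a core paraspeckle protein, was higher in MR49F by 0.92 (adjusted p = 2.31e-05), and 8 of the 11 were lower, such as SRSF1 (-0.40) and SRRM2 (-0.35), where 29.9% of all genes were lower; without the library that stood apart 9 were lower. With enzalutamide in full serum the median was -0.03 in V16D and -0.04 in MR49F cells.

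The snoRNA host SNHG1 rose with enzalutamide and with DHT in stripped serum and fell with JQ-1. Its vehicle libraries read 22.9, 24.8 and 24.4 FPKM, its enzalutamide libraries 33.8, 32.9 and 31.5 FPKM and its DHT libraries 35.8, 37.3 and 35.5 FPKM. Each treatment lay above all vehicle libraries, and every DHT library above every enzalutamide library. The log2 fold changes were 0.43 with enzalutamide (standard error 0.05, adjusted p = 0.000166, limma), 0.57 with DHT (0.04, adjusted p = 4.88e-06) and 0.14 for DHT over enzalutamide (0.04, adjusted p = 0.0193), the last lost in 3 of 6 fits that left out a library. With JQ-1 SNHG1 read 18.9, 18.2 and 17.0 FPKM, under all vehicle libraries, a log2 fold change of -0.39 (0.05, adjusted p = 9.49e-05). With JQ-1 added it stood at 19.8 ± 1.49 FPKM beside enzalutamide (-0.70, standard error 0.06, adjusted p = 5.62e-06) and at 18.9 ± 0.824 beside DHT (-0.91, 0.04, adjusted p = 3.44e-07). The 3 groups with JQ-1 overlapped each other. The JQ-1 effect was larger by -0.30 with enzalutamide present (0.08, adjusted p = 0.0208) and by -0.51 with DHT present (0.07, adjusted p = 5.63e-05), both from limma. On 9 to 32 counted reads per library edgeR gave -0.10 for JQ-1 alone (adjusted p = 0.829) and 0.87 for enzalutamide (adjusted p = 0.0559). It called neither interaction (adjusted p = 0.540 and 0.419). The stripped-serum counts hold few reads for a given FPKM: 45 over the 3 vehicle libraries at 24.0 FPKM. V16D cells with vehicle in full serum had 4108 reads at 56.0 FPKM. These count tests are therefore no like-for-like check of the FPKM.

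In full serum SNHG1 was steady. It stood at 56.0 ± 0.406 FPKM with vehicle and 56.8 ± 1.52 with enzalutamide in V16D, and at 62.2 ± 7.25 and 66.8 ± 2.71 in MR49F cells, with overlapping ranges in both lines and between the lines. The fitted differences were 0.02 (adjusted p = 0.614), 0.11 (adjusted p = 0.487) and 0.14 (adjusted p = 0.183). The library that stood apart read 53.95 FPKM against 67.5 and 65.1 for its replicates, and without it the difference between the lines was 0.24 (adjusted p = 0.000799, limma). The enzalutamide effect in MR49F differed between the sera by 0.32 (0.10, adjusted p = 0.0355), which was 0.42 (adjusted p = 0.00069) without that library and lost in 8 of the 11 fits that left out another single library.

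GAS5, the other snoRNA host among the 9 genes, moved against SNHG1 with DHT. Its vehicle libraries in stripped serum read 217, 228 and 188 FPKM and its DHT libraries 145, 126 and 136 FPKM, with no overlap and a log2 fold change of -0.63 (SE 0.08, adjusted p = 9.98e-05, limma). Enzalutamide left it at 209.7, 221 and 232 FPKM, overlapping vehicle, at 0.07 (0.07, adjusted p = 0.501). DHT against enzalutamide gave -0.70 (0.06, adjusted p = 1.36e-05). JQ-1 gave 182, 166 and 159 FPKM, -0.32 (0.08, adjusted p = 0.00478, limma), under all vehicle libraries. On 104 to 205 counted reads per library edgeR gave -0.18 (adjusted p = 0.216), with the same limit of the stripped-serum counts as for SNHG1. Added to enzalutamide it gave 185, 210.2 and 182 FPKM, which overlapped the enzalutamide libraries by a fraction of an FPKM, at -0.20 (0.06, adjusted p = 0.0161); after rescaling by median ratios this was -0.09 (adjusted p = 0.169). Beside DHT it left GAS5 at 142 ± 6.10 FPKM, overlapping DHT alone, at 0.07 (0.06, adjusted p = 0.302). The JQ-1 effect differed in the presence of DHT by 0.39 (0.11, adjusted p = 0.00994, limma).

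In full serum GAS5 rose with enzalutamide in V16D cells from 73.2, 82.0 and 83.2 to 102, 97.9 and 98.8 FPKM, with no overlap, a log2 fold change of 0.32 (SE 0.05, adjusted p = 0.00402, limma). In the fit of all full-serum groups, which shares the spread of MR49F, its adjusted p was 0.213. In MR49F cells vehicle libraries read 77.2, 117 and 145.5 FPKM, a wide spread whose lowest value came from the library that stood apart, and enzalutamide libraries 163, 165 and 179 FPKM. The groups did not overlap, at 0.62 (0.22, adjusted p = 0.162), and without that library at 0.37 (adjusted p = 0.0819); edgeR on the read counts gave 0.46 (0.12, adjusted p = 0.0334). Between the lines under vehicle the difference was 0.46 (0.22, adjusted p = 0.107, limma), and 0.71 (adjusted p = 0.00163, limma) without it. On the read counts of all libraries edgeR and DESeq2 gave less, 0.226 to 0.231 (adjusted p from 0.0526 to 0.115). Summed over all genes, FPKM came to 509791 to 533971 in the V16D vehicle libraries and 611911 to 800845 in those of MR49F. How far these totals bear on line differences of GAS5, other snoRNA hosts and ribosomal genes was not tested.

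The other snoRNA host genes gave both patterns. Of 14 in the files, 6 rose and 5 fell with DHT (28.9% of all genes rose and 43.2% fell), with a median log2 fold change of -0.09 against -0.08 for all genes; SNHG16 rose by 0.59 (standard error 0.05, adjusted p = 8.67e-06, limma), SNHG12 by 0.53 and SNHG15 by 0.37, while SNHG5 fell by 0.43. With enzalutamide in stripped serum 6 rose and 2 fell (19.3% of all genes each way), SNHG16 again by 0.59 (0.06, adjusted p = 6.54e-05). With JQ-1 10 fell and 1 rose, where 42.6% of all genes fell and 32.5% rose, a median of -0.34 against -0.06 for all genes, led by SNHG3 (-0.85), SNHG16 (-0.85) and SNHG11 (-0.79). JQ-1 added to enzalutamide lowered 12 of the 14 and added to DHT 10 (44.4% and 43.3% of all genes fell), with SNHG16 at -1.10 and -1.27. In full serum 10 of the 14 were higher in MR49F than in V16D cells, with and without the library that stood apart (32.7% of all genes were higher with it), ZFAS1 going from 38.7 ± 0.372 to 91.8 ± 9.74 FPKM. Enzalutamide raised 3 in V16D cells (SNHG3, ZFAS1 and DANCR), where 17.7% of all genes rose. In MR49F cells 0 of the 14 were called (4.60% of all genes), with a median of 0.19 against 0.04 for all genes. Without the library that stood apart 1 was called (8.07% of all genes), and the median of the 14 was 0.08.

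Genes of ribosomal proteins and translation factors were listed beside the snoRNA hosts. With DHT 5 of 8 fell (median -0.20; 43.2% of all genes fell), the elongation factor EEF1A1 by 0.29 on the log2 scale (adjusted p = 0.0015, limma), and with enzalutamide in stripped serum the median was 0.04. With JQ-1 1 rose (EEF2) and 3 fell, 4 of 8 against 75.1% of all genes called. In V16D cells enzalutamide raised 4 (17.7% of all genes rose), and 7 of 8 were higher in MR49F than in V16D cells (32.7% of all genes), with and without the library that stood apart.

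**Figure D3:**
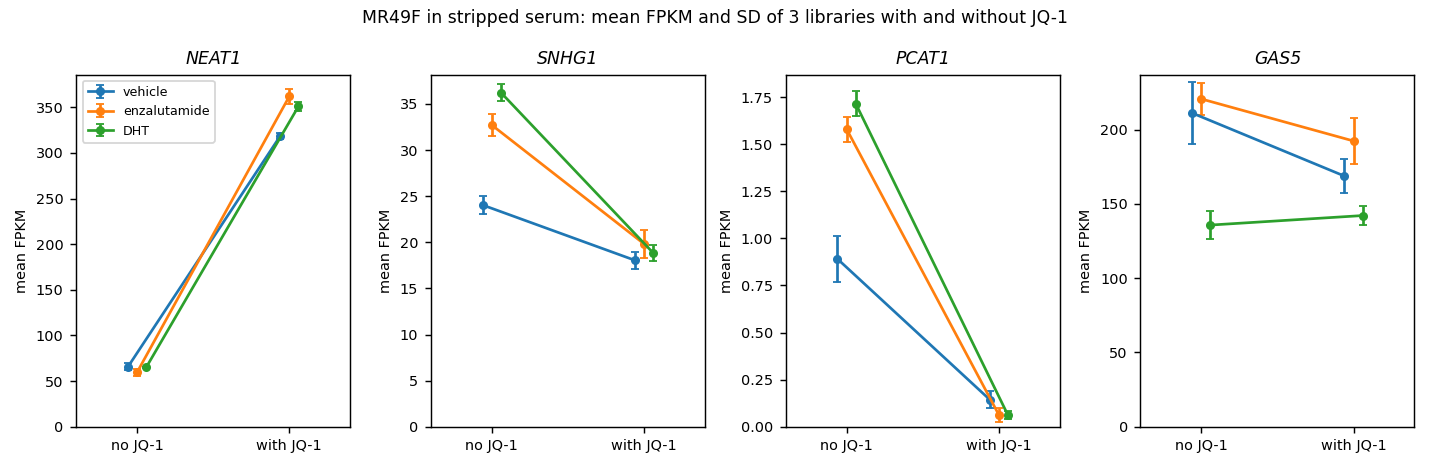
Mean FPKM (y axis, linear from 0) with SD over 3 libraries of MR49F cells in stripped serum without and with JQ-1 (x axis), joined by lines for vehicle, enzalutamide and DHT. NEAT1 rises in all 3 settings, SNHG1 and PCAT1 end near the same level from different starts (SNHG1 at 18.1, 19.8 and 18.9 FPKM), and GAS5 starts lower with DHT, at 136 FPKM, and stays there with JQ-1.

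PCAT1 spans chr8:127568568-128431295 on the plus strand (GRCh37), upstream of MYC (chr8:128747680-128755197). It rose with enzalutamide and with DHT in stripped serum and was nearly lost with JQ-1. Its vehicle libraries read 0.752, 0.981 and 0.939 FPKM, its enzalutamide libraries 1.65, 1.57 and 1.52 FPKM and its DHT libraries 1.75, 1.64 and 1.76 FPKM. Both treatments lay above all vehicle libraries and overlapped each other. The log2 fold changes were 0.45 with enzalutamide (standard error 0.07, adjusted p = 0.00148, limma; 0.00394 without the filter) and 0.52 with DHT (0.07, adjusted p = 0.000116; 0.000548 without the filter), and the treatments differed by 0.07 (0.06, adjusted p = 0.298, both groups over 1 FPKM). With JQ-1 it read 0.187, 0.150 and 0.0973 FPKM, with enzalutamide and JQ-1 0.0341, 0.0535 and 0.104, and with DHT and JQ-1 0.0879, 0.0476 and 0.0502. All 9 JQ-1 libraries lay far under the lowest vehicle library. Against vehicle, where it did not pass the filter, the fit without a filter gave -0.72 (0.06, adjusted p = 8.86e-05); JQ-1 added to enzalutamide gave -1.28 (0.07, adjusted p = 3.34e-07; 3.88e-06 without the filter) and added to DHT -1.35 (0.05, adjusted p = 1.60e-07; 1.54e-06 without the filter). The JQ-1 effect was larger by -0.56 with enzalutamide (0.09, adjusted p = 0.00167; 0.000878 without the filter) and by -0.63 with DHT (0.08, adjusted p = 7.29e-05; 5.72e-05 without the filter). With JQ-1 PCAT1 lay near 0, so on this scale the -0.56 and -0.63 largely repeat its rises with enzalutamide and DHT, with the sign turned. The read counts hold little on PCAT1 in stripped serum: 2 to 7 reads per library without JQ-1 and 0 to 1 with it.

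MYC, which encodes a transcription factor, stood at 66.5 ± 1.87 FPKM with vehicle, 100.3 ± 7.27 with enzalutamide, 98.8 ± 5.63 with DHT, 36.4 ± 1.98 with JQ-1, 34.9 ± 1.58 with enzalutamide and JQ-1 and 24.1 ± 1.72 with DHT and JQ-1. Its order over these 6 groups matched that of PCAT1 in that both enzalutamide and DHT were above vehicle and all JQ-1 groups under it. In full serum, where MYC was 0.68 higher on the log2 scale in MR49F than in V16D cells (adjusted p = 0.00024; 0.61, adjusted p = 3.77e-05, without the library that stood apart), PCAT1 lay between 4.08 and 5.13 FPKM in all 12 libraries. It differed by 0.14 between the lines (0.06, adjusted p = 0.0855), which was called without the library that stood apart (0.18, adjusted p = 0.0263) and in the fit of all full-serum groups (adjusted p = 0.0331). It differed by 0.11 with enzalutamide in V16D (0.04, adjusted p = 0.0839) and by -0.06 in MR49F cells (0.06, adjusted p = 0.599; -0.10, adjusted p = 0.33, without that library). The enzalutamide effect in MR49F differed between the sera by 0.51 (0.09, adjusted p = 0.00139, limma; 0.00322 without the filter), and by 0.55 (adjusted p = 0.000919) without the library that stood apart.

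PCA3 was highest with DHT and lowest with JQ-1. In stripped serum it read 0.912, 0.622 and 0.723 FPKM with vehicle, 0.738, 0.986 and 0.885 with enzalutamide and 2.065, 1.999 and 2.23 with DHT. The DHT libraries lay above all others in the study, while vehicle and enzalutamide overlapped. The log2 fold change with DHT was 0.82 (SE 0.07, adjusted p = 1.40e-05, limma; 0.000173 without the filter), a ratio of means of 2.79, and DHT exceeded enzalutamide by 0.73 (0.07, adjusted p = 2.89e-05; 0.000364 without the filter). Enzalutamide against vehicle gave 0.09 without a filter (0.08, adjusted p = 0.456). JQ-1 brought PCA3 to 0.0891 ± 0.0349 FPKM alone, 0.160 ± 0.0496 with enzalutamide and 0.0830 ± 0.00642 with DHT. No JQ-1 library reached the lowest library without it. These falls were -0.68 against vehicle (0.06, adjusted p = 0.000188, limma, no filter) and -0.69 against enzalutamide (0.06, adjusted p = 0.000126, no filter). Against DHT the fall was -1.52 (0.06, adjusted p = 9.73e-08, and 1.55e-06 without the filter). The DHT and JQ-1 effects were not additive (-0.83, 0.09, adjusted p = 1.63e-05, limma, and 2.22e-05 without the filter). With JQ-1 PCA3 lay near 0, so on this scale the -0.83 nearly repeats the DHT effect of 0.82 with its sign turned.

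In V16D cells in full serum PCA3 went from 0.892, 1.01 and 0.772 FPKM with vehicle to 0.472, 0.576 and 0.681 with enzalutamide, with no overlap. The fit without a filter gave -0.26 (0.07, adjusted p = 0.0523), short of the threshold, and edgeR on the read counts, which were 64 to 90 with vehicle and 49 to 58 with enzalutamide per library, gave -0.64 (0.16, adjusted p = 0.000241). In MR49F cells vehicle and enzalutamide overlapped, at 0.831 ± 0.174 and 0.816 ± 0.104 FPKM.

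PRUNE2, the gene around PCA3 on the opposite strand, moved the other way with DHT, from 109.9 ± 6.41 to 63.5 ± 5.63 FPKM (-0.78, standard error 0.07, adjusted p = 1.28e-05, limma). It fell with JQ-1, to 15.1 ± 0.220 FPKM alone (-2.78) and from 63.5 to 10.7 ± 0.268 FPKM beside DHT (-2.46). In MR49F cells in full serum it rose with enzalutamide (0.31, adjusted p = 0.0151; 0.28, adjusted p = 0.00723, without the library that stood apart), and in V16D cells it fell by 0.16 (adjusted p = 0.00321).

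The read counts gave another picture for PCA3 in stripped serum. With DHT 55, 65 and 60 reads were counted on PCA3 against 99, 56 and 66 with vehicle, and edgeR gave -0.17 (standard error 0.17, adjusted p = 0.447), where the FPKM rose. PCA3 reads were 2.21% to 4.98% of PRUNE2 reads in the stripped-serum groups and 0.406% to 0.597% in the full-serum groups, while by FPKM PCA3 was 0.588% to 3.30% and 1.36% to 2.01% of PRUNE2. GAS5-AS1, on the strand opposite GAS5, had 33.0% to 60.1% as many reads as GAS5 in stripped serum and 0.387% to 1.19% in full serum, against 0.404% to 0.621% and 0.429% to 1.61% by FPKM. Reads on genes were 5.13% to 7.66% of all reads assigned, ambiguous or outside features in stripped serum and 73.0% to 77.8% in full serum. How the strand was set in the counting is not given in the sources used here, and its part in the difference between counts and FPKM was not tested.

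**Figure D4:**
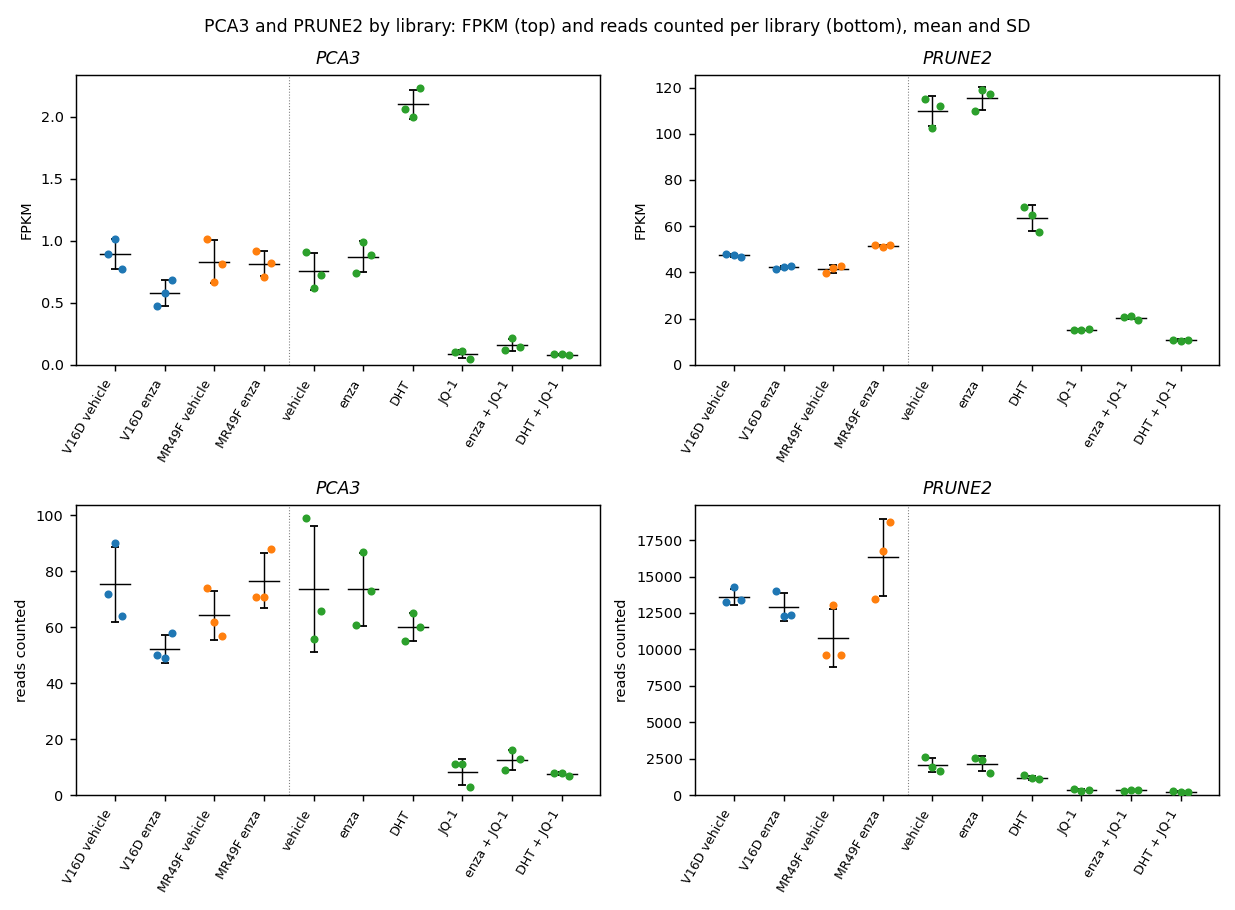
PCA3 and PRUNE2 in each library (points) with the mean and SD of 3 libraries, as FPKM (top, y axis) and as reads counted per library (bottom, y axis, not scaled to library size), for 10 conditions (x axis; blue V16D and orange MR49F in full serum, green MR49F in stripped serum). By FPKM PCA3 is highest with DHT, at 2.098 FPKM, and by reads it is not, with 55 to 65 reads against 56 to 99 with vehicle.

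PCGEM1, H19 and MEG3 were near or at 0. PCGEM1 was above 0 in 12 of 30 libraries and highest in V16D cells with vehicle, at 0.162, 0.180 and 0.125 FPKM, against 0.0534, 0.0927 and 0.0620 with enzalutamide. These groups did not overlap, and the fit without a filter gave -0.11 (standard error 0.02, adjusted p = 0.0315, limma) on 4 to 6 and 2 to 3 counted reads per library, a fall that edgeR without a filter (adjusted p = 0.251) and DESeq2 (adjusted p = 0.427) did not call. In MR49F cells with vehicle in full serum it was listed at 0 in 2 libraries and read 0.0368 FPKM in the other, -0.19 against V16D (0.03, adjusted p = 0.00217, no filter; -0.21, adjusted p = 0.00297, without the library that stood apart). In stripped serum it was listed at 0 in all 3 vehicle libraries, 2 of 3 enzalutamide libraries, 1 of 3 DHT libraries and all 9 libraries with JQ-1.

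H19 stayed under 0.7 FPKM. It read 0.235, 0.197 and 0.267 FPKM in V16D and 0.460, 0.6998 and 0.448 in MR49F cells with vehicle in full serum, with no overlap and a difference of 0.31 without a filter (standard error 0.07, adjusted p = 0.0142, limma; 0.35, adjusted p = 0.0193, without the library that stood apart). JQ-1 lowered it from 0.283 ± 0.0723 to 0.0801 ± 0.0384 FPKM (-0.25, adjusted p = 0.00499, no filter), from 0.418 ± 0.0606 to 0.0638 ± 0.0443 beside enzalutamide (-0.41, adjusted p = 0.000316) and from 0.286 ± 0.0721 to 0.0494 ± 0.0688 beside DHT (-0.29, adjusted p = 0.00596). The libraries with and without JQ-1 did not overlap in any of these pairs, at levels where 0 to 2 reads per library were counted in stripped serum.

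MEG3, summed over 15 RefSeq transcripts, was at 0 in 15 of 30 libraries and at most 0.0903 FPKM. Its mean was 0.0581 to 0.0782 FPKM in the 4 full-serum groups and at most 0.0101 in the stripped-serum groups, which were separate experiments. No comparison called it with or without the filter in limma.

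**Figure D5:**
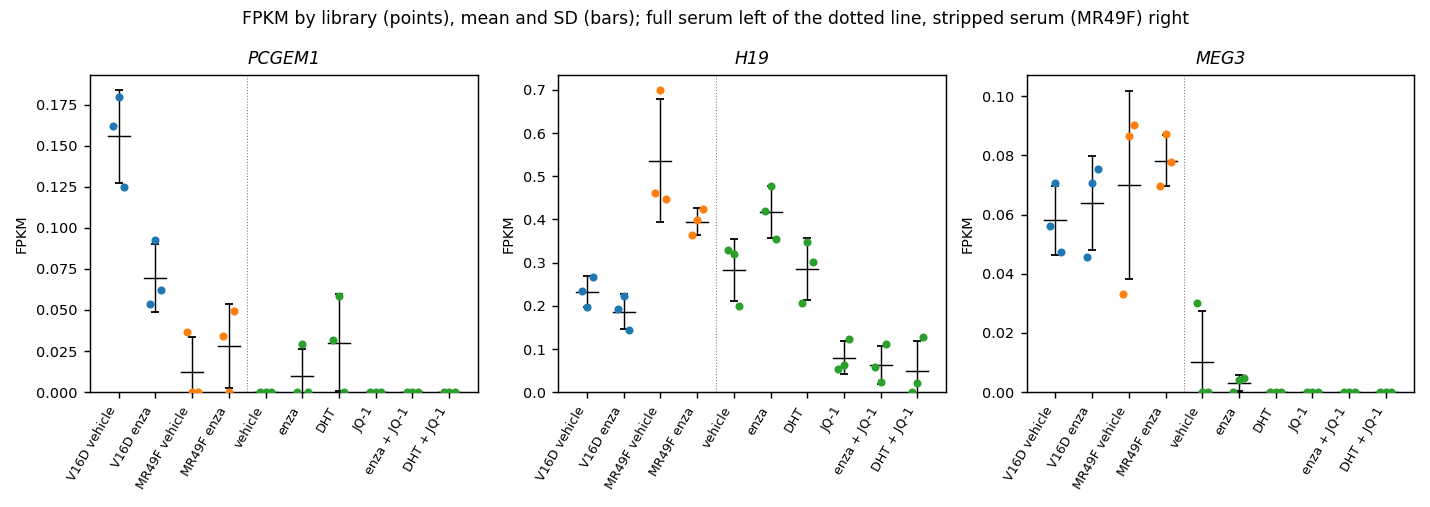
FPKM (y axis, linear from 0, a different scale in each panel) of PCGEM1, H19 and MEG3 in each library, with the mean and SD of 3 libraries, for the 10 conditions (x axis; blue V16D and orange MR49F in full serum, green MR49F in stripped serum). PCGEM1 is highest in V16D cells with vehicle (0.156 FPKM), and all 3 genes stay under 0.71 FPKM.

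Of 9 genes from the imprinted regions of H19 and MEG3 or tied to them, 1 to 3 passed the filter in a comparison. IGF1R, the growth factor receptor repressed by a microRNA cut from H19, fell from 18.5 ± 0.316 to 5.66 ± 0.188 FPKM with enzalutamide in V16D cells (-1.55, standard error 0.03, adjusted p = 4.17e-07, limma) and rose in stripped serum from 5.56 ± 0.235 FPKM with vehicle to 14.8 ± 0.220 with enzalutamide (1.27) and 27.8 ± 1.54 with DHT (2.14). CDKN1C, a cell cycle inhibitor next to the H19 region, fell with DHT (-0.81, adjusted p = 1.94e-05, limma) and rose with JQ-1 (0.54, adjusted p = 0.000171). DIO3, the deiodinase gene at the end of the MEG3 region, was lower with enzalutamide (-1.05), DHT (-1.79) and JQ-1 (-1.83). It passed the filter only through the vehicle libraries, where it was high: 2.88 FPKM, against 0.881, 0.123 and 0.0906 with these treatments.

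Of 18 further noncoding RNAs of prostate cancer, 6 were among the measured symbols. SOCS2-AS1 passed the filter only through the group in which it was high, so its values are from the fit without a filter. It rose with DHT from 0.254 ± 0.266 to 2.91 ± 0.303 FPKM (1.66, standard error 0.16, adjusted p = 0.000236, limma), fell when JQ-1 joined DHT (-0.99, adjusted p = 0.000102) and fell with enzalutamide in V16D cells (-1.11, adjusted p = 0.0013). PVT1, a noncoding neighbour of MYC, rose with DHT by 0.27 (adjusted p = 0.000655) and fell with JQ-1 from 6.39 ± 0.263 to 2.32 ± 0.135 FPKM (-1.15, adjusted p = 3.00e-07), from 6.87 to 2.21 FPKM beside enzalutamide (-1.29) and from 7.92 to 1.64 FPKM beside DHT (-1.76). Of the genes tested, 3 fell and 1 rose with JQ-1 (TUG1, by 0.22), 4 of 4 where 75.1% of all genes were called, and with enzalutamide in stripped serum the median of the genes tested was 0.03.

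The genes most alike in pattern were sought among 8890 genes averaging at least 5 FPKM, by Pearson's r over the 10 condition means of log2(FPKM + 1), each centred on its serum experiment. NEAT1 was closest to HEXIM1, an inhibitor of the elongation factor P-TEFb (r = 0.996), MIRLET7BHG (0.993) and PRPF18 (0.992). MALAT1 was closest to UNC119 (0.995) and LENG8 (0.988). PCAT1 was closest to ALDH1B1 (0.995), GAR1 (0.995), a protein of snoRNA particles, and SUPV3L1 (0.994). SNHG1 was closest to SET (0.991), IARS (0.989) and SHMT2 (0.986), a mitochondrial enzyme of serine and folate metabolism. GAS5 was closest to RPS13 (0.976) and RPS3A (0.971), ribosomal proteins, and SLC39A13 (0.965). These values are descriptions over 10 points that share libraries within a condition, and for the genes moved by JQ-1 they rest largely on the 3 JQ-1 groups.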

How the data were processed

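Poly(A) RNA from 30 samples was sequenced as strand-specific single-end reads of 50 bases. Per the labels and the study's methods, the authors aligned reads to GRCh37 with TopHat 2.0.9 and deposited raw read counts per gene symbol from HTSeq, with 36.5% to 41.6% (full serum) and 93.3% to 95.5% (stripped serum) of each table in rows without a gene, which were left out. The deposited FPKM values, made by the authors per RefSeq transcript with Cufflinks 2.1.1, were summed by symbol here; how the counting treated strand is not given in the sources used here. No pair of replicates was identical (0 of 30). The members, lists and naming rule (all 9 genes, the 4 largest called changes per list, the 3 most similar genes, PRUNE2, MYC, KLK3 and TMPRSS2) were chosen with earlier results of these data known.

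limma 3.58.1 (lmFit, eBayes with trend; R 4.3.3) was run on log2(FPKM + 1) for the groups compared, on genes reaching 1 FPKM in 3 or more samples, and the script was tested on simulated data. All p-values are two-sided and adjusted over all genes tested. Alternatives were a pseudocount of 0.1, no filter, median-ratio rescaling, a replicate block, all groups of a serum in 1 fit, edgeR 4.0.16 (TMM, DESeq2 size factors, no filter), DESeq2 1.42.0 and leaving out each sample. Figures were drawn with matplotlib 3.10.9. A few items, among them some similar genes and list members, are not reported here.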

Additional observations from a re-analysis of the deposited data

Results flagged for a closer look

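The effect of a treatment differed between 2 settings in the limma test of the difference itself (adjusted p of at most 0.05) for the following genes. The effect of enzalutamide in MR49F cells was higher in stripped than in full serum for PCAT1 (0.505 on the log2 scale) and SNHG1 (0.322) and lower for MALAT1 (-0.303). The effect of JQ-1 was lower beside DHT than alone for PCA3 (-0.832), PCAT1 (-0.632) and SNHG1 (-0.513) and higher for GAS5 (0.387) and NEAT1 (0.151). Beside enzalutamide it was lower than alone for PCAT1 (-0.555) and SNHG1 (-0.301) and higher for NEAT1 (0.319). PCA3 and PCAT1 lay near 0 with JQ-1, so their values largely repeat the effects of DHT or enzalutamide with the sign turned. In the count tests with TMM, neither interaction with JQ-1 was called for PCA3, NEAT1, GAS5 or SNHG1 (PCAT1 was under the count filter), and for PCA3 beside DHT the sign turned (0.189).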

How the results depend on the processing

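The count of members called by limma moved with these settings, among others. With all groups in 1 fit it was 1 for enzalutamide in V16D, 1 for enzalutamide in MR49F in full serum and 4 between the lines. Without a filter it was 4 between the lines and 7 for JQ-1. In these comparisons, in the order named, the alternative limma fits called 2763 to 3878, 100 to 1928, 7608 to 8766 and 9143 to 10606 of all genes. Without a filter limma also called PCGEM1 for enzalutamide in V16D, PCA3 and H19 when JQ-1 joined enzalutamide, and H19 when it joined DHT. The calls of MALAT1 for enzalutamide in stripped serum and of SNHG1 for serum with enzalutamide were lost. On the read counts (edgeR with TMM, with DESeq2 size factors, without a filter, then DESeq2) the count of members called was 1, 1, 1 and 1 for enzalutamide in MR49F in full serum. It was 0, 0, 1 and 0 in stripped serum, 3, 3, 3 and 1 for DHT, and 1, 1, 1 and 1 for DHT against enzalutamide. For the interaction of serum and enzalutamide it was 0, 0, 1 and 0, and for the interactions of JQ-1 with DHT and with enzalutamide 0 in all. Of all genes the count tests called, in this order, 1066 to 1468, 367 to 1032, 2710 to 4523, 1161 to 2394, 1545 to 1859, 723 to 1428 and 55 to 182. The main limma fits called 575, 4709, 8787, 6904, 4425, 5983 and 2389. edgeR without a filter and DESeq2 gave 4 between the lines, where the count tests called 7960 to 9305 of all genes. For the interaction of line and enzalutamide edgeR without a filter gave 1, where the count tests called 862 to 1210. Where the counts and FPKM part, the cause was not tested.

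Directions turned for SNHG1 with enzalutamide in V16D (-0.0133 rescaled, -0.0325, -0.0339 and -0.03 in edgeR, -0.0343 in DESeq2), NEAT1 with DHT (0.123 rescaled, 0.00659 in edgeR without a filter, 0.000699 in DESeq2), PCA3 with DHT (-0.171, -0.17, -0.144 and -0.142 in the 4 count tests), PCA3 for DHT against enzalutamide (-0.211, -0.205, -0.186 and -0.218), PCAT1 for the same (-0.185 in edgeR without a filter, -0.153 in DESeq2) and the interaction of DHT and JQ-1 for PCA3 (0.189, 0.19, 0.185 and 0.178). Of the other results for single members under these settings, 487 kept direction and side of the threshold, 71 lost and 14 gained a call.

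With 1 library left out the members called, PCA3 and PCAT1 included, were 2 to 2 for enzalutamide in V16D, 0 to 0 in MR49F in full serum, 2 to 5 between the lines, 1 to 3 for enzalutamide in stripped serum, 3 to 5 for DHT, 4 to 4 for JQ-1, 1 to 3 for DHT against enzalutamide, 3 to 5 for JQ-1 added to enzalutamide or DHT, 0 to 1 for line with enzalutamide, 1 to 3 for serum with enzalutamide, 2 to 5 for DHT with JQ-1 and 1 to 3 for enzalutamide with JQ-1. PCA3 and PCAT1 were no longer tested where 2 libraries of their high group remained, so these ranges say nothing of their stability. Counted over the genes at 1 FPKM in every library, they were 1 to 2 for enzalutamide in stripped serum, 3 to 3 for DHT, 1 to 2 for DHT against enzalutamide, 3 to 4 for JQ-1 added to enzalutamide, 3 to 3 added to DHT, 0 to 2 for serum with enzalutamide, 2 to 3 for DHT with JQ-1 and 1 to 2 for enzalutamide with JQ-1. Of all genes these fits called 2813 to 3187 (enzalutamide in V16D), 88 to 1002 (MR49F, full serum) and 6462 to 8449 (lines). In stripped serum it was 3651 to 4243 (enzalutamide), 7832 to 8422 (DHT), 8309 to 8623 (JQ-1) and 5700 to 6472 (DHT against enzalutamide). JQ-1 added to enzalutamide gave 8363 to 8748, and added to DHT 8477 to 8844. The interactions gave 553 to 1053 (line), 3591 to 4748 (serum), 5424 to 5817 (DHT with JQ-1) and 1756 to 2397 (enzalutamide with JQ-1). Values near 0 turned sign for NEAT1 (-0.0215 to 0.0273) and SNHG1 (-0.000405 to 0.0372) with enzalutamide in V16D, GAS5 with enzalutamide in stripped serum (-0.0138 to 0.124), NEAT1 with DHT (-0.0553 to 0.0216), SNHG1 for line with enzalutamide (-0.0105 to 0.149) and MALAT1 for DHT with JQ-1 (-0.0821 to 0.227).

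Replicate numbers did not pair the samples: same-numbered deviations correlated at -0.379 to 0.166, and in no comparison did every pair exceed 0.1. With a replicate block, GAS5 between the lines was called (0.459, adjusted p = 0.0469, limma), the block changed no other call of a member, PRUNE2 with enzalutamide in MR49F in full serum was no longer called (0.31, adjusted p = 0.0883), nor was DANCR with enzalutamide in V16D (adjusted p = 0.0841), and all genes called for enzalutamide in MR49F in full serum went from 575 to 100. Reads on genes in stripped serum limit what the counts can show for PCAT1, PCGEM1, H19 and MEG3. Leaving out the library that stood apart in the fits without a filter, an alternative chosen after seeing the data, turned values near 0 for PCA3 with enzalutamide in MR49F (0.0611) and for MEG3 (-0.0135 with enzalutamide in MR49F, -0.0215 for line and 0.00358 for serum with enzalutamide).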
